A study of Mus musculus with 15 samples.

Results

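Expression of 8 genes that mark the bile ducts and the ductular reaction was examined in mouse hepatic allografts and hepatic controls. The genes were Krt7, Krt19, Krt23, Epcam, Sox9, Prom1, Cftr and Muc1, and the rule for choosing them is this list of names. They were read by 14 probes, out of 41152 probes for 32285 genes that had a value on all 9 hepatic arrays. Probes without a matched gene symbol count among these genes under their own names. Of the 32285, 9837 were well above background on no hepatic array, against 0 of the 8 members. The shares over all genes given below include them. None of the 8 genes differed between allografts and controls, or between the days, by more than the spread between arrays allowed limma to call. The data consisted of single-colour Agilent arrays, 3 for each of 3 groups. They were hybridized with Cy3-labelled material prepared from total RNA of whole pieces of liver. Livers of male B10.BR (H-2k) mice had been placed orthotopically, with the cuff technique, into male B10.D2 (H-2d) recipients and taken at post-operative day 5 (POD5) or 8 (POD8). No age and no drug treatment is given in the sources used here. The 3 controls, shared by both days, are called normal hepatic tissue in the labels and methods and isografts in the results and legends of the study. An effect of the operation, including the joining of the bile duct, and an effect of rejection cannot be told apart from these groups. The labels number the samples without saying that each came from its own animal, so that the tests measure only the spread between these arrays, which may in part be technical.

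The bile ducts are lined by cholangiocytes, epithelial cells that join the hepatocyte canaliculi to the gut and modify bile by moving chloride, bicarbonate and water. They carry a keratin pair that hepatocytes lack, together with epithelial adhesion molecules, and they are few among the cells of a liver. In many injuries of the liver and of the biliary tree, small irregular ductules with these markers appear at the edge of the portal tracts, which is called the ductular reaction, and in rejection of a liver graft the bile ducts are a known target of T cells. In a piece of whole tissue, fewer duct cells and less RNA per duct cell cannot be told apart.

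The 5 members in the pairs that passed a test of correlation over the arrays, described below, are shown by the bases before an annotated start, so that the sequence stands beside the values. RefSeq sequence of the assembly GRCm38.p6 was at hand for 6 of the 8 members. The 250 bases before the start are printed from 5′ to 3′ on the strand of the gene, with matches to 4 short motifs in capitals. For Prom1 the table holds several starts, and the window shown, before the outermost of them, lies inside the span annotated for the gene.

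Krt7 (chr15:101412153-101412402, plus strand): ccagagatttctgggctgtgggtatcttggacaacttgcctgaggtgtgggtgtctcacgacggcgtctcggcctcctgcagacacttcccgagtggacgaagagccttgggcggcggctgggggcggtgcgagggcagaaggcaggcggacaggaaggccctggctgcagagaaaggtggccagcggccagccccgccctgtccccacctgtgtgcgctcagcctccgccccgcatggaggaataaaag

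Krt23 (chr11:99493121-99493370, minus strand): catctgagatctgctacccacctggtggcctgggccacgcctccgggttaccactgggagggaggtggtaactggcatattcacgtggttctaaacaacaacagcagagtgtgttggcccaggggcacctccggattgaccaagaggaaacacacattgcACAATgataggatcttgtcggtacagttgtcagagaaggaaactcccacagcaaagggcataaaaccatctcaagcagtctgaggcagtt

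Epcam (chr17:87635729-87635978, plus strand): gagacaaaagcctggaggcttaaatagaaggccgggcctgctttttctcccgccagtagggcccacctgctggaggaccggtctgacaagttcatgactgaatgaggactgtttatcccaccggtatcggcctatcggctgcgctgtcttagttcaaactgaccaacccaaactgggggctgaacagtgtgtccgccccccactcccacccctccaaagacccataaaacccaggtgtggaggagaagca

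Prom1 (chr5:44101737-44101986, minus strand): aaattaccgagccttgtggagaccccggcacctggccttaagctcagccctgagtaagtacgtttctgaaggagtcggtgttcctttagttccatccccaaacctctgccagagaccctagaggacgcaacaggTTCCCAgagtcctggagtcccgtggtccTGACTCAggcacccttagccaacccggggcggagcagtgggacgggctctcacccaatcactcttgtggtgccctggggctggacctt

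Cftr (chr6:18170437-18170686, plus strand): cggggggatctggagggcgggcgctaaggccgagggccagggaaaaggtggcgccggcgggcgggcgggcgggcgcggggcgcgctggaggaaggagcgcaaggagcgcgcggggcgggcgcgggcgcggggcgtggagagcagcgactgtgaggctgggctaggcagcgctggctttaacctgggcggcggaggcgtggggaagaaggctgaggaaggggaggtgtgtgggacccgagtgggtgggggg

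The motifs, searched on both strands, were the SOX core ACAAT, the RBPJ site TGGGAA, the AP-1 site TGANTCA and the STAT site TTCNNNGAA. A SOX core lay in the window of Krt23, 90 to 86 bases before the start, and 28.2% of 27018 windows of the same length in the table held one. An RBPJ letter string, 116 to 111 bases before the start, and an AP-1 string, 88 to 82 bases before it, lay in the window of Prom1, and 21.5% and 6.85% of all windows held these. The windows of Krt7, Epcam and Cftr held no match, and neither did that of Muc1. The STAT string, held by 7.14% of all windows, was in none of the 6. The pairs that ran together therefore had no match to these letters in common in these windows.

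Brightness before normalization differed between the groups, which bears on the dim members. On control arrays 1, 2 and 3 the processed signal had a 75th percentile of 92.1, 165 and 226, whereas the POD5 arrays ranged from 338 to 478 and the POD8 arrays from 384 to 454. The share of probes with a signal well above background was 52.5% to 57.0% on controls and 58.2% to 66.3% on allografts. Control arrays 1 and 2 shared a slide with POD8 arrays 1 and 2, and no POD5 array shared a slide with a control. Control array 3 had a slide and a scan run that no other array of the series shared. Leaving it out therefore leaves controls from a single slide, and its own level and its slide cannot be told apart. The hepatocyte genes marked the tissue as liver, with albumin (Alb) at a normalized signal of 17.84 to 18.05 (log2) on all 9 arrays.

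The keratins form the intermediate filaments of epithelia, and Krt7 and Krt19 are those by which pathologists recognize bile ducts. The Krt7 signal (normalized, log2) was 8.60, 8.17 and 8.98 on the control arrays, 9.46, 8.15 and 8.01 at POD5, and 7.70, 8.30 and 7.76 at POD8. The highest value was that of POD5 array 1, and the ranges of the groups overlapped. The difference from control was -0.04 at POD5 (SE 0.41, 95% confidence interval -1.0 to 0.92, limma adjusted p = 0.974) and -0.66 at POD8 (interval -1.62 to 0.30, adjusted p = 0.379). The second, dimmer Krt7 probe followed the first over the 9 arrays (Pearson's r = 0.93) and gave differences of -0.28 and -0.65.

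Krt19 stood at 7.11, 7.49 and 8.66 (log2) in the controls, 8.98, 7.91 and 7.85 at POD5, and 7.24, 8.68 and 7.07 at POD8. A single array in each group reached 8.66 or more, and the others lay at 7.91 or less. The spread within a group, with SDs of 0.81, 0.64 and 0.89 in the same order, was therefore larger than the differences between the means. These were 0.49 at POD5 (interval -0.85 to 1.84, adjusted p = 0.632) and -0.09 at POD8 (interval -1.43 to 1.25, adjusted p = 0.945). Within the slide shared by controls and POD8 arrays, the latter difference was 0.66, so that its sign was not fixed by these data.

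Krt23, a type I keratin of simple epithelia, had the widest spread of the keratins. Its values were 6.28, 6.09 and 7.04 (log2) in the controls, 8.10, 5.36 and 5.49 at POD5, and 4.90, 5.72 and 5.28 at POD8. All 3 POD8 arrays lay below all 3 controls, and it was the only one of the 8 genes whose POD8 and control values did not overlap. Over all genes, 31.6% did not overlap in that comparison, 19.8% with POD8 lower, so that 1 gene in 8 was not more than the share over all genes. At POD5, 0 of 8 members did not overlap with the controls, against 31.9% of all genes. The POD8 difference of -1.17 (SE 0.71, interval -2.82 to 0.48) had an adjusted p of 0.368. At POD5 the difference was -0.16 (interval -1.81 to 1.49, adjusted p = 0.923), with 1 array above all controls and the other 2 below them.

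**Figure D1:**
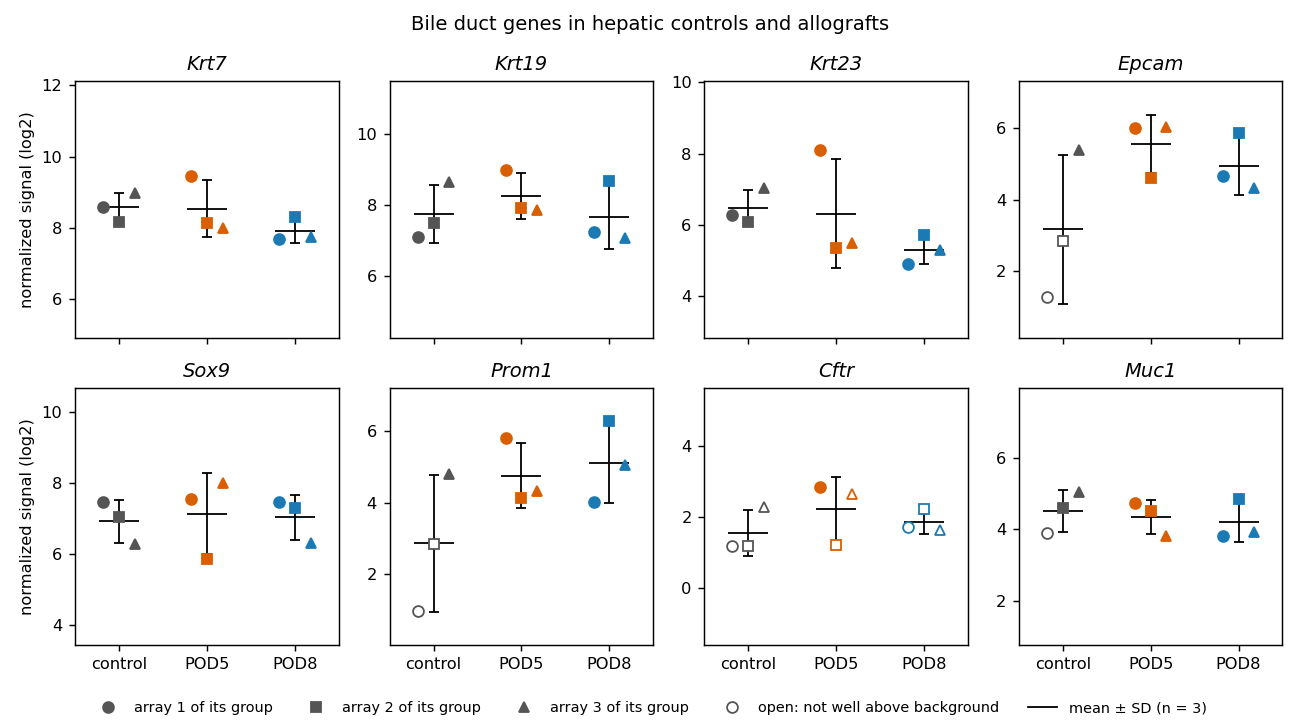
Normalized signal (log2, vertical axis) of the brightest probe of each member in the 3 hepatic groups (horizontal axis), with 1 point per array and the mean ± SD of 3 arrays. Each panel covers the same span on the log2 scale, and open points lie on arrays where the probe was not well above background. Epcam and Prom1 were lowest on control arrays 1 and 2, and Krt7, Krt19 and Krt23 were highest on POD5 array 1.

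Epcam and Prom1 gave the largest differences among the members. Epcam is an adhesion molecule of the lateral membrane of epithelia that cholangiocytes carry and mature hepatocytes lack. Its normalized signal was 1.26, 2.84 and 5.40 (log2) in the controls, 6.01, 4.61 and 6.04 at POD5, and 4.65, 5.88 and 4.31 at POD8. Every allograft array lay above control arrays 1 and 2, and control array 3 lay among the allografts. Before normalization, the processed signal of this probe was 1.57, 3.69 and 34.1 on the control arrays, and 30.7 to 109 on the 6 allograft arrays. The probe was well above background on 1 of the 3 control arrays and on all 6 allograft arrays.

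The Epcam difference from control was 2.39 at POD5 (log2, SE 1.01, interval 0.04 to 4.74), and it did not pass the test (adjusted p = 0.183). At POD8 it was 1.78 (interval -0.57 to 4.13, adjusted p = 0.338). Control array 3 decided the call. Without it the POD5 difference was 3.55 with an adjusted p of 0.0276, and the POD8 difference was 2.94 with an adjusted p of 0.0554. Over all alternatives the adjusted p at POD5 ranged from 0.0276 to 1. Within the slide that held control arrays 1 and 2 and POD8 arrays 1 and 2, the difference was 3.21 (adjusted p = 0.173 with the slide as a block). The size also depended on the background correction, since with normexp and an offset of 50 the differences were 0.52 and 0.24.

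Prom1 (prominin, CD133) is a membrane protein of the apical surface, often used to mark ductules and progenitor-like cells. It read 0.95, 2.85 and 4.79 (log2) in the controls, 5.81, 4.13 and 4.33 at POD5, and 4.02, 6.30 and 5.06 at POD8. The arrangement was that of Epcam, with control arrays 1 and 2 lowest and control array 3 among the allografts. The probe was well above background on 1 of the 3 control arrays and on 3 of 3 arrays of each allograft group. Before normalization its processed signal on the controls was 1.29, 3.71 and 22.9. The difference was 1.89 at POD5 (interval -0.48 to 4.27, adjusted p = 0.283) and 2.26 at POD8 (interval -0.11 to 4.64, adjusted p = 0.235). Without control array 3 these were 2.91 (adjusted p = 0.0771) and 3.28 (adjusted p = 0.0720), and within the shared slide the POD8 difference was 3.26. With normexp they were 0.31 and 0.46. The other Prom1 probe had an r of 0.99 with this one and differences of 1.66 and 1.94.

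The order of the controls in Epcam and Prom1 was also the order of the brightness of those arrays, given above. Its part in the result was not tested. Among the controls the values of Krt19 and Muc1 had that order too, whereas Krt7 and Krt23 were lowest on control array 2 and Sox9 ran in the opposite order.

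Muc1, a mucin of the apical membrane of glands and ducts, stayed within a narrow range. It stood at 3.89, 4.60 and 5.05 (log2) in the controls, 4.73, 4.52 and 3.81 at POD5, and 3.82, 4.85 and 3.92 at POD8. The means differed from control by -0.16 at POD5 (interval -1.11 to 0.79, adjusted p = 0.847) and by -0.31 at POD8 (interval -1.26 to 0.63, adjusted p = 0.681). The groups overlapped on both days. A dimmer Muc1 probe (r = 0.81 with this one) gave -0.10 and 0.39, the latter of the opposite sign.

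Cftr, the chloride channel through which cholangiocytes drive bicarbonate and water into bile, was near the limit of the arrays. Of its 2 probes, the brighter was well above background on 1 of 9 arrays, POD5 array 1, and the dimmer on none. The brighter probe read 1.19, 1.17 and 2.28 (log2) in the controls, 2.85, 1.21 and 2.64 at POD5, and 1.71, 2.23 and 1.63 at POD8. No fold is given between groups that lay at background. The fitted differences were 0.68 (adjusted p = 0.422) and 0.31 (adjusted p = 0.742).

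Sox9, a transcription factor that marks the biliary lineage and hepatocytes next to the portal tract that have taken on ductal features, did not follow the other members. It read 7.46, 7.04 and 6.27 (log2) in the controls, 7.55, 5.86 and 8.0 at POD5, and 7.48, 7.30 and 6.32 at POD8. The highest and the lowest of the 9 values were both at POD5. The difference was 0.22 at POD5 (interval -1.19 to 1.62, adjusted p = 0.864) and 0.11 at POD8 (interval -1.30 to 1.52, adjusted p = 0.934). A second probe, spotted 10 times on each array, gave 0.21 and 0.30, and the last was well above background on none of the 9 arrays.

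Counted together, 0 of 8 members were called by limma at POD5, where 9.99% of all genes were, and 0 of 8 at POD8, where 7.94% were. At an unadjusted p under 0.05 there was 1 member at POD5, Epcam, and 0 at POD8, where 26.4% and 23.2% of all probes had such a p. SFC and the methods' t-test, each with a Bonferroni adjustment, also called 0 of 8 on either day, and out of 41152 probes SFC called 365 and 395 and the t-test 5 and 14. Between POD8 and POD5, 0 of 8 members and 0.00929% of all genes were called, and 0 members had an unadjusted p under 0.05, against 7.90% of all probes. The differences between the days ranged from -1.01 for Krt23 (interval -2.67 to 0.64) to 0.37 for Prom1 (interval -2.0 to 2.74). The median difference from control over the members was 0.36 at POD5 and 0.01 at POD8, against -0.08 and -0.11 over all genes. The POD5 and POD8 differences share their control arrays. A p that misses the threshold does not show that the groups were alike, and the intervals for Epcam and Prom1 reach beyond 4 on the log2 scale.

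**Figure D2:**
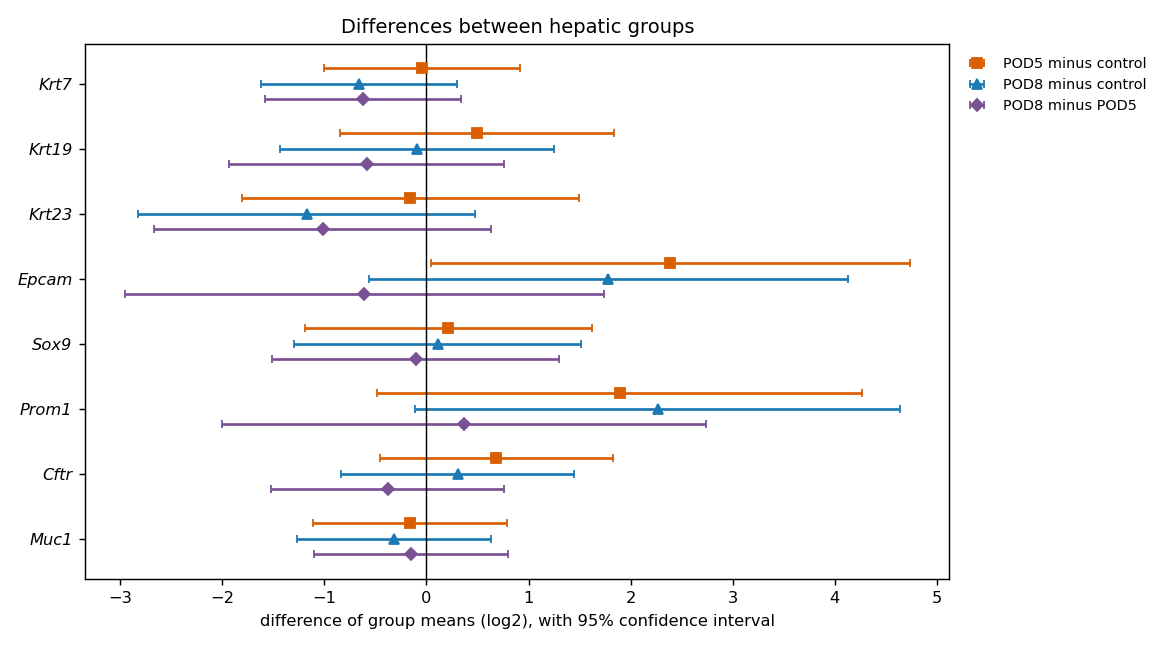
Difference between group means (log2, horizontal axis) of each member (vertical axis) with its 95% confidence interval from limma, for POD5 and POD8 against control and for POD8 against POD5. The intervals are widest for Epcam and Prom1, and only that of Epcam at POD5 (0.04 to 4.74) lies wholly on one side of 0, before adjustment over all probes.

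Single arrays stood out over several members at once. Leaving out Cftr, POD5 array 1 was among the 3 highest of the 9 arrays for 7 of 7 members. Control array 3 and POD8 array 2 were among the 3 highest for 4 of 7 each, whereas POD8 arrays 1 and 3 were among the 3 lowest for 5 of 7 each, and control array 1 for 4 of 7. POD5 arrays 2 and 3 were among the 3 lowest for 2 of 7 each.

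Of the 28 pairs of members, 26 had a positive Pearson's r over the 9 arrays, and 3 passed an exact permutation test after Benjamini-Hochberg adjustment over the 28. Krt7 and Krt23 ran closest together, with an r of 0.97 and a Spearman's rho of 0.97 (exact permutation p = 6.06e-05 and 0.000165, adjusted 0.00170 and 0.00463). Without the 2 arrays farthest from the median of Krt7, r was 0.87, and it was 0.96 for the deviations from the group means. These genes lie on chromosomes 15 and 11, and each belongs to a different keratin type.

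Epcam and Prom1 had an r of 0.90 (exact permutation p = 0.00163, adjusted 0.0228) and a rho of 0.67 (exact permutation p = 0.0589, adjusted 0.236). Without the 2 arrays farthest from the median of Epcam, which were control arrays 1 and 2, r was 0.51, so that the relation rested on those arrays. The remaining pair was Epcam and Cftr, with an r of 0.83 and a rho of 0.93 (exact permutation p = 0.00319 and 0.000750, adjusted 0.0298 and 0.0105), and an r of 0.91 without the 2 farthest arrays, although Cftr was at background on 8 of 9 arrays. Sox9 had an r between -0.37 and 0.44 with the other 7. The arrays of a pair share the tissue piece, the slide and the brightness of the array.

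The 5 genes with a pattern most like that of Krt19, out of 14161 candidates, were Rab25 (r = 0.95 over 9 arrays), Tspan8 (0.94), Degs2 (0.93), Serpinb5 (0.93) and Gabrp (0.90). Rab25 is a small GTPase of vesicle traffic in epithelia, Tspan8 a tetraspanin, Degs2 an enzyme of sphingolipid synthesis, Serpinb5 the serpin maspin and Gabrp a subunit of the GABA-A receptor. Tspan8 and Gabrp are also on the list of other duct genes given below. None of the 5 was called on either day. Gabrp, for example, read 2.33, 2.72 and 6.01 (log2) in the controls, 6.53, 4.92 and 4.75 at POD5, and 3.44, 5.55 and 4.08 at POD8. As in Epcam, control array 3 stood with the allografts. Among the members, Muc1 ranked 27 in likeness to Krt19, Krt7 58, Epcam 80, Prom1 108 and Krt23 117, and Sox9 ranked 7233.

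**Figure D3:**
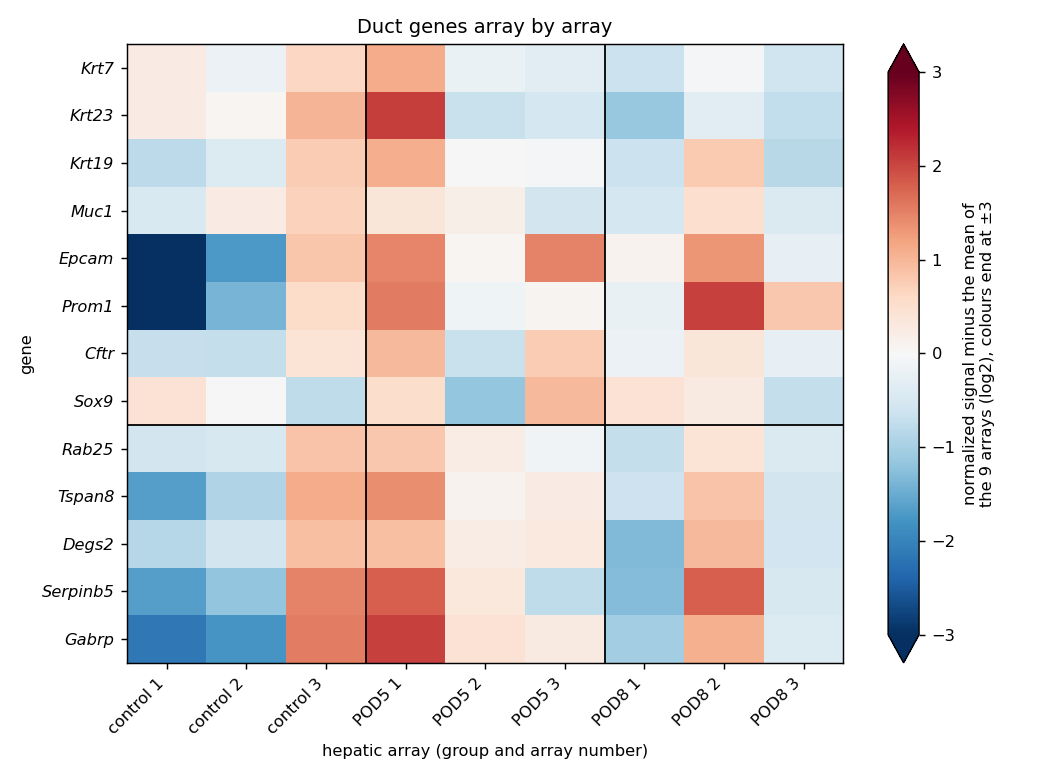
Normalized signal (log2) of each gene minus its mean over the 9 hepatic arrays, as colour, with arrays along the horizontal axis and genes along the vertical axis. The upper 8 genes are the members and the lower 5 those most like Krt19. POD5 array 1 and control array 3 are red for most genes, and Epcam and Prom1 are blue on control arrays 1 and 2.

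A list of 23 other genes of bile duct epithelium also gave few calls. At POD5, 0 were called higher and 1 lower, and the same held at POD8, with 5.74% of all genes called higher and 4.25% lower at POD5 and 4.92% and 3.01% at POD8. The list's median difference was 0.74 at POD5 and 0.31 at POD8, above the 0.36 and 0.01 of the members. The POD5 median is the value of Krt18, which stood at 15.09 to 16.28 (log2) on the 9 arrays, against 7.07 to 8.98 for Krt19. It cannot be read as a change of duct cells alone. The gene called lower was Itgb4, the integrin that anchors epithelia to the basement membrane. It read 6.86, 6.70 and 6.49 (log2) in the controls, 6.11, 6.02 and 5.81 at POD5, and 5.75, 6.11 and 6.03 at POD8, without overlap. The difference was -0.70 at POD5 (SE 0.16, adjusted p = 0.0319) and -0.72 at POD8 (SE 0.16, adjusted p = 0.0345). The call was lost under 17 of 22 alternatives at POD5 and 16 of 23 at POD8, with a negative difference under all of them. Leaving out any one of 7 arrays ended it on each day, with adjusted p between 0.0263 and 0.0809 at POD5 and between 0.0298 and 0.122 at POD8.

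Some genes of that list, named after their values were seen, moved up or down without a call. At POD5, 2 of the 23 genes lay above all controls and 2, with Itgb4, below them, and at POD8 4 and 4. Over all genes, 31.9% and 31.6% did not overlap in either direction. Bicc1 lay below all controls at POD8 (-0.75, adjusted p = 0.0560), and differed by -0.42 at POD5 (adjusted p = 0.210). Dcdc2a lay below all controls on both days, by -0.30 (adjusted p = 0.228) and -0.51 (adjusted p = 0.0713). Mmp7, a matrix protease made by injured biliary epithelium, read 1.96, 4.03 and 8.29 (log2) in the controls, 10.09, 8.30 and 7.67 at POD5, and 8.06, 9.41 and 7.92 at POD8. Control array 3 again lay among the allografts. The probe was well above background on 1 of the 3 control arrays and on every allograft array. Its processed signal on the controls was 1.78, 8.22 and 243. The differences were 3.93 (SE 1.5, adjusted p = 0.148) and 3.70 (SE 1.5, adjusted p = 0.190). Against control arrays 1 and 2 alone they were 5.71 (adjusted p = 0.0146) and 5.49 (adjusted p = 0.0196). The lowest differences over the alternatives were 1.754 at POD5 and 1.496 at POD8. Mmp7 was called under 2 of 22 and 2 of 23 alternatives. SFC, which compares medians and borrows its spread from neighbouring probes, called Mmp7 on both days. Elf3, an epithelial transcription factor, did not overlap with the controls on either day, at 3.29 to 4.87 in the controls, 4.95 to 6.66 at POD5 and 5.61 to 6.37 at POD8. Its probe was well above background on 2 of the 3 control arrays, with a processed signal of 3.42 on control array 1. The Elf3 differences of 1.84 (adjusted p = 0.0778) and 1.80 (adjusted p = 0.0939) did not pass. Elf3 was called under 4 of 22 alternatives at POD5, among them without control array 3 (adjusted p = 0.0482) and without POD5 array 2 (adjusted p = 0.0363), and under 2 of 23 at POD8, and with normexp the differences were 0.68 and 0.62.

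Notch ligands from portal cells and the coactivator Yap1 drive cells towards a biliary fate. Of 14 genes of Notch and YAP signalling, 2 were called higher at POD5, where 5.74% of all genes were, and 0 at POD8, where 4.92% were. None was called lower on either day. The median difference of the list was 0.04 at POD5 and 0.02 at POD8, so the called genes do not speak for the list. At POD5, Jag1, Hes1 and Yap1 differed by 0.01, 0.02 and 0.04. Hey1 and Wwtr1 differed by -0.59 and -0.41, and Heyl and Ccn1 by 0.90 and 0.83, without a call. The largest difference of the list was that of Ankrd1, also without a call. It was 2.499 at POD5 (adjusted p = 0.300) and 1.816 at POD8 (adjusted p = 0.463). Ankrd1 read 1.17, 4.02 and 7.31 (log2) in the controls, so that control array 3 lay among the allografts, as in Epcam. Whether the pathways were active was not tested. At POD8, with limma, 0 of 14 compares with 7.94% of all genes. Ccn2 (connective tissue growth factor), a target of YAP, read 7.76, 8.12 and 8.03 (log2) in the controls, 10.14, 9.18 and 10.91 at POD5, and 9.0, 8.89 and 9.06 at POD8. All allograft arrays lay above all controls. It was 4.31-fold higher at POD5 (log2 difference 2.11, SE 0.38, adjusted p = 0.0156), a call kept under 15 of 22 alternatives and lost without POD5 array 1 (adjusted p = 0.0585). At POD8 the difference was 1.02 (adjusted p = 0.164), and the test between the days did not pass (-1.09, adjusted p = 0.575). Rbpj, the DNA-binding partner of the cleaved Notch receptors, stood at 6.31, 6.18 and 6.31 in the controls, 6.91, 7.08 and 7.74 at POD5, and 6.94, 7.19 and 7.28 at POD8. The difference was 0.98 at POD5 (adjusted p = 0.0323) and 0.87 at POD8 (adjusted p = 0.0557), with -0.11 between the days (adjusted p = 0.924). The POD5 call was kept under 9 of 22 alternatives, and leaving out any one of 6 arrays ended it, with adjusted p from 0.0345 to 0.0818 over the 9 arrays left out in turn.

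Of 13 ligands and receptors of the ductular reaction with a probe, 1 was called lower on each day and 0 higher. Over all genes, 4.25% were called lower at POD5 and 3.01% at POD8. The median difference of the list was 0.46 at POD5 and -0.26 at POD8, so the called gene does not speak for the list. On each day 1 gene lay above all controls and 3 below them, where 31.9% and 31.6% of all genes did not overlap. The gene above was Tgfb1 (0.79 and 0.99, adjusted p = 0.113 and 0.0673). At POD5, Tnfrsf12a differed by 1.16 and Egfr by -0.93, without a call. These were named after their values were seen. The gene called was Met, the receptor of hepatocyte growth factor, which hepatocytes and duct cells share. It read 11.39, 11.38 and 11.49 (log2) in the controls, 10.41, 10.64 and 10.69 at POD5, and 10.52, 10.54 and 10.77 at POD8. All allograft arrays lay below all controls. The difference was -0.84 at POD5 (SE 0.12, adjusted p = 0.00767) and -0.81 at POD8 (SE 0.12, adjusted p = 0.0101). The call was kept under 18 of 22 and 17 of 23 alternatives. At POD8 it was lost without POD8 array 1 (adjusted p = 0.0512), without POD8 array 2 (adjusted p = 0.0539) and with the slide as a fixed block (adjusted p = 0.0875).

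**Figure D4:**
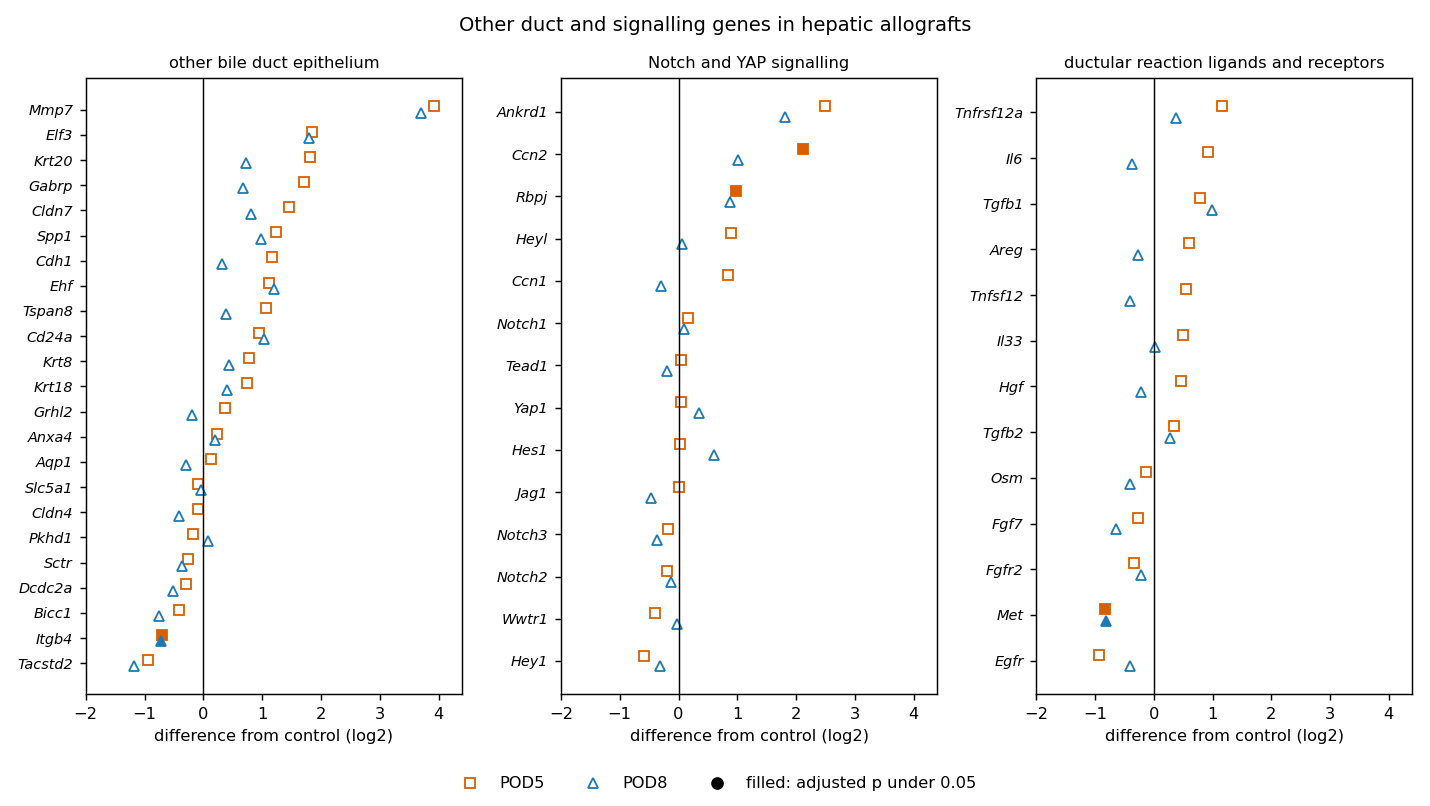
Difference from control (log2, horizontal axis) at POD5 and POD8 for the genes of 3 lists (vertical axes): other bile duct epithelium (23 genes), Notch and YAP signalling (14) and ligands and receptors of the ductular reaction (13). Filled points had an adjusted p under 0.05: Itgb4 and Met on both days, and Ccn2 and Rbpj at POD5.

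The genes of other cells that the tissue pieces could hold were read beside these values. Over all genes, limma called 5.74% higher at POD5 and 4.92% at POD8. Of 8 T cell genes, 6 were called higher on each day. Cd8a, a chain of the CD8 coreceptor of cytotoxic T cells, was well above background on 0 of 3 controls and on all 6 allograft arrays. It was at least 101-fold higher at POD5 (adjusted p = 7.92e-06) and at least 103-fold higher at POD8 (adjusted p = 6.82e-06). The bound sets the mean of the allografts against the lowest signal of a probe well above background on each control array, or the probe's own where that is higher. The summed signal of the T cell list was 346 to 409 in the controls, 5467 to 9238 at POD5 and 4769 to 6073 at POD8. Of 8 proliferation genes, 7 were called higher at POD5 and 5 at POD8, Mki67 by 2.88 (SE 0.22, adjusted p = 0.000517) and 1.94 (SE 0.22, adjusted p = 0.00284). The part of these cells in the levels of the duct genes was not tested.

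Of 11 hepatocyte genes, 0 were called on either day by limma, against 9.99% of all genes at POD5 and 7.94% at POD8. Alb differed from control by 0.10 (adjusted p = 0.575) and 0.00 (adjusted p = 1), and Hnf4a, a hepatocyte transcription factor, by -0.10 on each day (adjusted p = 0.786 and 0.779). The 3 POD8 arrays held the same Alb values as the 3 controls, in another order. Quantile normalization gives the brightest probes of every array a shared set of values. For Alb, a difference near 0 therefore does not show an unchanged level. Other genes of the list moved more without a call. Cyp2e1 differed by -1.026 and -0.722, below all controls on both days. Cyp3a11 differed by 1.045 and 0.973, and Cyp7a1 by 0.523 and -2.086. With each array scaled to its 75th percentile, the median over all probes was -0.39 at POD5 and -0.47 at POD8, and Alb was called lower, by -1.07 and -1.13. The mesothelium of the liver capsule makes keratins of ducts too. Of 6 mesothelial genes, 0 were called, against the same shares of all genes. Their summed signal was 321 to 1354 in the controls, 394 to 608 at POD5 and 522 to 721 at POD8, highest on control array 1. Msln differed by -0.44 (adjusted p = 0.645) and -0.00 (adjusted p = 0.998).

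The heart has no bile ducts, and the probes were looked up on the 6 cardiac arrays as flags only. The brightest probes of Krt7, Krt19 and Sox9 were well above background on 3 of 3 cardiac controls and on 3 of 3 cardiac allografts (B10 hearts in CBA recipients at POD5). Those of Krt23, Prom1 and Cftr were so on 3 of 3 controls and 0 of 3 allografts, Muc1 on 3 and 1, and Epcam on 1 and 2. The cardiac controls were brighter arrays than the cardiac allografts, with a 75th percentile of 1021 to 1247 against 394 to 710. A flag on these probes was therefore not limited to tissue with ducts.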

How the data were processed

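Labelled material prepared from total RNA of the tissue pieces was hybridized to single-colour arrays. The files deposited by the authors hold a linear intensity per spot, the processed signal, after background subtraction by the scanner software and before any normalization between arrays, and median intensities of spot and background. Here log2 of the processed signal was taken without control spots and outlier-marked spots (47 to 92 per hepatic array). Spots of one probe were averaged, and quantile normalization was run over the 9 hepatic arrays. A probe counted as well above background with a share of at least 0.5 of its spots marked so in the files. Symbols came from matching accessions in the files to RefSeq (GRCm38.p6), which named 26690 of 41174 probes (64.8%), and other probes kept their own names. A gene was read by its brightest probe over the 9 arrays.

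The 3 groups entered 1 limma fit (limma 3.58.1, R 4.3.3), 2-sided, with Benjamini-Hochberg adjustment over 41152 probes and calls at an adjusted p under 0.05. The number of arrays limits the precision, and the smallest p of an exact permutation test of 3 against 3 arrays is 0.1. Alternatives were quantile normalization within a phase, scaling to the 75th percentile, normexp on median signals (mean signals were planned), filters, other priors, blocks for replicate number and slide, SFC of the study with a bin size of 1000, the methods' t-test, Bonferroni adjustment, all probes of a gene, and leaving out each array. The steps were tested on simulated data. Exact permutation tests of correlations and figures used Python 3.11.15 and matplotlib 3.10.9.

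The members and the lists were chosen with earlier results of these data known. Genes of the 3 duct and signalling lists were named if they were called and had a measured signal on every array of a group (up to 5 higher and 3 lower per day), with Alb, Hnf4a, Msln, Cd8a and Mki67 always, and the 5 genes most like Krt19. Alternatives for genes other than the members were added after the data were seen. Of the list genes, Lif, Pck1, Cps1, Serpina1a, Prss1, Muc2, Cd68 and Ly6g were not analysed here, and 1 gene of the list of other duct genes is not reported here.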

Additional observations from a re-analysis of the deposited data

How the results depend on the processing

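No call was made for any of the 8 genes in any comparison under the alternatives, except for Epcam at POD5 without control array 3. The number of called members ranged from 0 to 1 at POD5 as arrays were left out. Of 549 values of the members under alternatives, 515 kept direction and side of the threshold, 33 turned sign and 1 gained a call. The cause of the changes was not tested. With normexp, Krt23 (0.0395) and Muc1 (0.0633) turned at POD5 and Muc1 (0.0190) at POD8. With 75th percentile scaling Cftr turned at POD8 (-0.54). With the slide as a random block Krt19 (0.13) turned at POD8 and Muc1 (0.00594) between the days, and as a fixed block, possible only for POD8 against control with 2 arrays each, Krt19 (0.66) and Muc1 (0.0926). With the mean of all probes Muc1 turned at POD8 (0.0359), and Muc1 (0.17) and Sox9 (0.15) between the days. With arrays left out in turn the POD5 difference ranged from -0.50 to 0.22 for Krt7, -1.05 to 0.32 for Krt23, -0.21 to 0.86 for Sox9 and -0.48 to 0.11 for Muc1, that at POD8 from -0.60 to 0.36 for Krt19 and -0.21 to 0.47 for Sox9, and that between the days from -0.75 to 0.32 for Sox9, -0.47 to 0.0359 for Muc1 and -0.21 to 0.92 for Prom1.

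Over all probes, 4082 were called at POD5 (2369 higher, 1713 lower), 3220 at POD8 (2056 higher, 1164 lower) and 3 between the days. At POD5 there were 1506 with quantile normalization within the phase, 11687 with 75th percentile scaling (2672 higher, 9015 lower), 1431 with 6 arrays in the fit, 2070 with the slide as a random block, 365 by SFC, 5 by the methods' t-test with Bonferroni and 224 with Benjamini-Hochberg adjustment, 117 by limma with Bonferroni and 2041 (without POD5 array 1) to 6255 (without control array 3) with an array left out. At POD8 there were 13670 with 75th percentile scaling (2497 higher, 11173 lower), 5076 and 0 with the slide as a random and a fixed block, 395 by SFC, 14 and 818 by the t-test, 103 by limma with Bonferroni and 1134 to 4030 with an array left out, with 1296, 1134 and 2070 without POD8 arrays 1, 2 and 3. Between the days there were 0 with 6 arrays in the fit, 1 with a trended prior, 1 with the slide as a random block, 232 by SFC, 1 and 1 by the t-test, 1 by limma with Bonferroni and 1 to 7 with an array left out. Quantile normalization within a phase could not be fitted between the days. Between same-numbered samples, the deviations from the group means had an r from -0.34 to 0.19. The labels state no pairing. With 3 arrays in a group, whose deviations sum to 0, these values cannot settle whether the numbers pair the samples. With the replicate block 2786, 1913 and 0 probes and 0 members were called. Dim members are limited by signal over background, above all Cftr and, in the controls, Epcam and Prom1.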

Other observations

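Other cells of the graft were read by lists that the report does not use. The share of all genes called, to set beside each count in this section, was 9.99% at POD5 and 7.94% at POD8. Of 8 endothelial genes, 1 was called higher and 1 lower at POD5 and 0 at POD8. They were Lyve1 (1.56, adjusted p = 0.0418), a receptor of sinusoidal endothelium, and Vwf (-1.28, adjusted p = 0.00348), made by larger vessels. Of 8 genes of stellate cells and fibroblasts, Reln, a matrix protein of stellate cells, was called lower on both days (-2.15, adjusted p = 0.00181, and -2.29, adjusted p = 0.00148), and Dcn at POD8 (-1.12, adjusted p = 0.0342). Of 7 macrophage genes, the scavenger receptor Marco was called higher on both days (1.91, adjusted p = 0.0151, and 2.32, adjusted p = 0.00845), and Cd163 lower at POD5 (-1.56, adjusted p = 0.0450). Of 6 genes of B and plasma cells and 5 of neutrophils, 0 were called by limma. These genes were named after their values were seen.

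Organs that lie next to the liver were read in the same way. Of 9 genes of exocrine pancreas, 4 were well above background on no hepatic array. Cela1 was called lower at POD5 (-1.29, adjusted p = 0.0225) and Cela2a on both days (-1.11, adjusted p = 0.0139, and -1.0, adjusted p = 0.0234), while Cela2a was not well above background in any of these groups. Of 7 genes of intestinal epithelium, the lectin Lgals4 was called lower on both days (-2.0, adjusted p = 0.0304, and -2.03, adjusted p = 0.0334).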
